A study of Rattus norvegicus with 4 samples.

Results

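The genes of glucagon and cAMP signaling were examined in the livers of rats that had inhaled sevoflurane or desflurane. The 10 genes are *Gcgr*, *Pde4d*, *Pde4b*, *Pde3b*, *Crem*, *Creb1*, *Crtc2*, *Nr4a1*, *Nr4a2*, and *Creb3l3*. They were chosen by their symbols, and all 10 were found among the 16992 annotated genes of the series. Liver RNA came from 4 male wild-type Wistar rats that had been 6 weeks old on purchase and were then acclimatized, with 1 rat for each condition. A rat inhaled 4.5% sevoflurane or 6% desflurane for 6 hours, and the control of each agent was sacrificed on losing consciousness, after less than 1 minute of the same agent. All rats breathed 50% oxygen, had been without food and water for 2 hours beforehand, and were sacrificed at about 3 PM. The 6 hours of anesthesia were not matched by 6 hours without anesthesia, so the effects of the agent and of a longer time without food cannot be told apart.

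Glucagon is the pancreatic hormone of the fasted state. Its receptor in hepatocytes acts through a G protein on adenylyl cyclase, which makes cAMP, and cAMP activates protein kinase A (PKA). PKA phosphorylates the transcription factor CREB, and together with the coactivator CRTC2 this turns on genes that bear a cAMP response element (CRE), among them genes for glucose production. Phosphodiesterases break cAMP down and end the signal.

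Expression is given in TPM, a transcript abundance that is normalized for transcript length and library size, so that levels can be compared between genes. Each condition has 1 library, so differences could not be set against a replicate spread, and no p-value is given. A gene is called upregulated or downregulated when the larger of its TPM values was above 2 and the values differed more than 2-fold, which is the rule used in the study. The libraries corresponded to between 4.47 and 5.40 Gb of aligned sequence. For all 9136 genes above 2 TPM throughout, the log2 change relative to the own control had a median of 0.05 for sevoflurane and 0.12 for desflurane. The middle of the distribution, from the 5th to the 95th percentile, was -0.65 to 0.66 with sevoflurane, -0.48 to 0.74 with desflurane, and -0.48 to 0.43 between the controls. The summed TPM value of 8 hepatocyte markers was between 134482 and 151791. The summed value of 10 Kupffer cell and macrophage markers was 719 in the sevoflurane control, 452 in the 6 h sevoflurane library, 561 in the desflurane control, and 684 in the 6 h desflurane library. The sevoflurane control also held RNA of pancreatic enzymes, with a summed TPM value of 24.9 for 8 pancreas markers, compared with at most 0.165 in the other libraries. The glucagon gene itself, *Gcg*, was listed at 0 in all 4 libraries.

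CRE sequences were looked for in the start regions of the genes because CREB binds to them. RefSeq start regions (GRCr8 build, 250 bases before to 50 bases after a start site) were at hand for 9 of the 10 genes, in 18 windows. The full CRE, TGACGTCA, was present in 2 of these windows, both of *Crem*, compared with 1.83% of 33469 windows of all genes. The short form, TGACG or CGTCA (the same letters on the other strand, and both contained in the full CRE), was present in 10 of the 18 windows, compared with 21.2% of all windows. Windows of the same gene are not independent, and a match of letters is not a binding site. *Crem* encodes activators and repressors of the CREB family, and from an internal start site it encodes ICER, a repressor that cAMP induces. Which of the windows, if any, belongs to the ICER start site was not determined. The *Crem* window at chr17:58985240-58985539 (plus strand) contained 2 full CREs, which begin 35 bases before and 39 bases after the start site, and 0.0418% of all windows contained at least 2. Another *Crem* window, at chr17:58984547-58984846 (plus strand), contained 1 full CRE 56 bases before the start site. The remaining *Crem* window, at chr17:58933816-58934115 (plus strand), contained 0 full CREs and 2 short forms, and is not printed. The window of *Nr4a1*, at chr7:134259888-134260187 (plus strand), contained 4 short forms, which was reached by 0.236% of all windows. The window of *Creb3l3*, at chr7:9273070-9273369 (plus strand), contained 1 short form, 224 bases before the start site. The 4 printed windows are of *Crem*, *Nr4a1*, and *Creb3l3*. These genes were chosen because, alone among the 10, their TPM values in both 6 h libraries lay on the same side of both controls. Capitals mark the full and short CREs.
Crem, start site with 2 full CREs: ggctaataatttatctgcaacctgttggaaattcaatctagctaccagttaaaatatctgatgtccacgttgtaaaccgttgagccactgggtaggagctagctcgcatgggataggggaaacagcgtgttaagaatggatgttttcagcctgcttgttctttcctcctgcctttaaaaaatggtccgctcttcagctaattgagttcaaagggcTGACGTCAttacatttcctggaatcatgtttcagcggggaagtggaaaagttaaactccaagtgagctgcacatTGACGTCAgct
Crem, start site with 1 full CRE: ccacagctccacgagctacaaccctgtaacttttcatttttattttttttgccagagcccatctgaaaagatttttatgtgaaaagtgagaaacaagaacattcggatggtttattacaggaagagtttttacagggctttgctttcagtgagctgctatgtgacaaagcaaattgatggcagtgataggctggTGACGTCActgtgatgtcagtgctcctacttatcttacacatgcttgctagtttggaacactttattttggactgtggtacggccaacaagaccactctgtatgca
Nr4a1: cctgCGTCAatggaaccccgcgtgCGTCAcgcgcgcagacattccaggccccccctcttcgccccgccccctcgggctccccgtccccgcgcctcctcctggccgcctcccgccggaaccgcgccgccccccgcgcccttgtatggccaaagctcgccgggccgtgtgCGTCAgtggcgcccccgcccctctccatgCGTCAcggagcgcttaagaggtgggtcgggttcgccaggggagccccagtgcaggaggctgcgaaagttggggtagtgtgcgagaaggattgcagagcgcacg
Creb3l3: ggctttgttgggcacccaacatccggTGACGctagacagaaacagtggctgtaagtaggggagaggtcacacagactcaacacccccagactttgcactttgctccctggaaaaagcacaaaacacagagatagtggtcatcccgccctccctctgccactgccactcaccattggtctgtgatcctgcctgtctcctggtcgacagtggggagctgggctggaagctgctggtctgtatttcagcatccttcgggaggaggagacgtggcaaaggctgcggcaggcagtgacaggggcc

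The 10 genes covered a wide range of levels. *Creb3l3* was by far the most abundant, with TPM values between 247 and 423 and rank 268 of 16992 genes by mean TPM. *Gcgr* (33.3 to 41.8) and *Pde3b* (31.7 to 35.0) followed, and their ranges overlapped. *Crtc2* (18.9 to 24.3) overlapped with *Crem* (15.1 to 21.1), and *Crem* overlapped with *Creb1* (13.0 to 16.0). *Pde4b* (4.42 to 8.49) was lower than *Creb1* in every library and overlapped with *Pde4d* (1.1 to 7.55). The orphan nuclear receptors *Nr4a2* (1.28 to 2.33) and *Nr4a1* (0.485 to 1.39) were the lowest, and their ranges overlapped. The average coverage of *Nr4a1*, which is the number of reads over each exonic base, was 2.49, 1.64, 1.99, and 0.817 in the sevoflurane control, 6 h sevoflurane, desflurane control, and 6 h desflurane libraries, so its values rest on few reads.

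**Figure D1:**
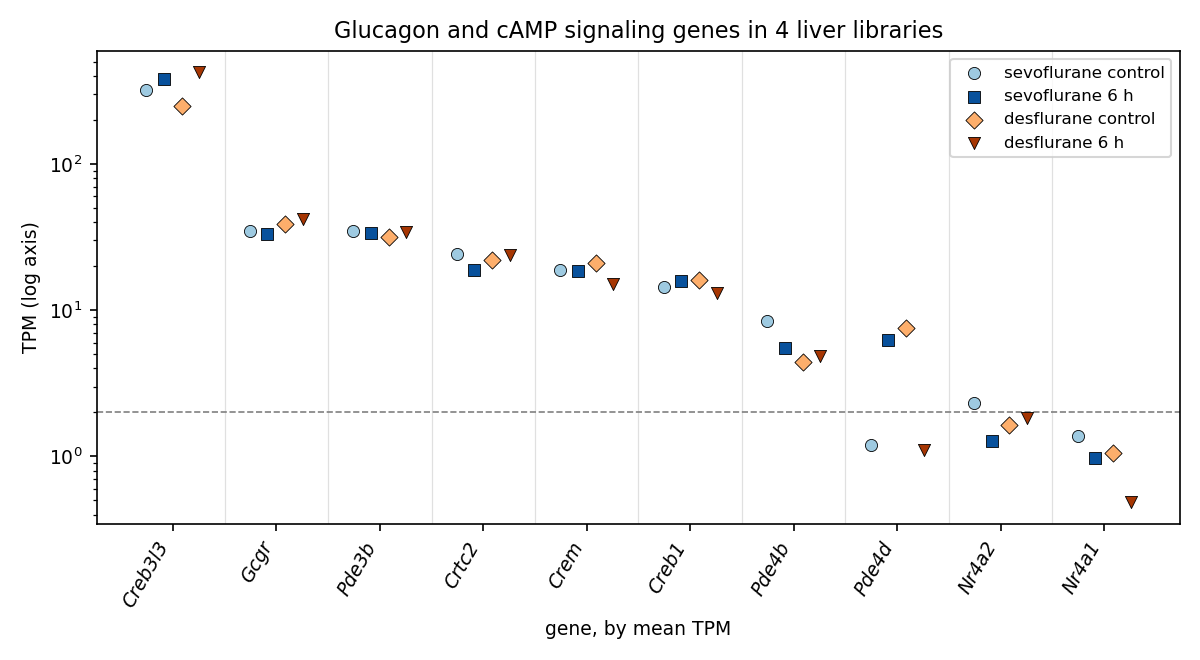
TPM values (log axis) of the 10 genes in each of the 4 libraries, ordered by mean TPM, with 1 point per library and the limit of 2 TPM as a dashed line. *Creb3l3* lies between 247 and 423, *Nr4a1* lies below 2 in all libraries, and *Pde4d* is low in the sevoflurane control (1.20) and in the 6 h desflurane library (1.1).

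Only *Pde4d* among the 10 genes passed the limits against its own control, and it did so in opposite directions with the agents. With sevoflurane, 1 of the 9 genes that had TPM values higher than 2 in either library was upregulated and 0 were downregulated, compared with 2.23% and 3.30% of all 9754 such genes. With desflurane, 0 of 8 were upregulated and 1 was downregulated, compared with 2.79% and 1.48% of 9855 genes. Against the control of the other agent, none of the 10 passed in either direction. The shares of all genes in those comparisons were 2.52% upregulated and 2.59% downregulated with sevoflurane, and 2.84% and 1.58% with desflurane. Between the controls, 1 of 9 was higher in the desflurane control and 0 were lower, compared with 1.17% of all genes in each direction. Sevoflurane gave a median log2 change of -0.06 over the 10 genes, and desflurane 0.10. The log2 change of 8 of the 10 genes with sevoflurane and of 7 of the 10 with desflurane was within the 5th to 95th percentile of all genes. For 7 of the 10 genes, the change with sevoflurane was smaller than the difference between the controls, and this was the case for 5 of the 10 genes with desflurane. The direction was the same with both controls for 6 genes with sevoflurane and for 6 genes with desflurane.

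**Figure D2:**
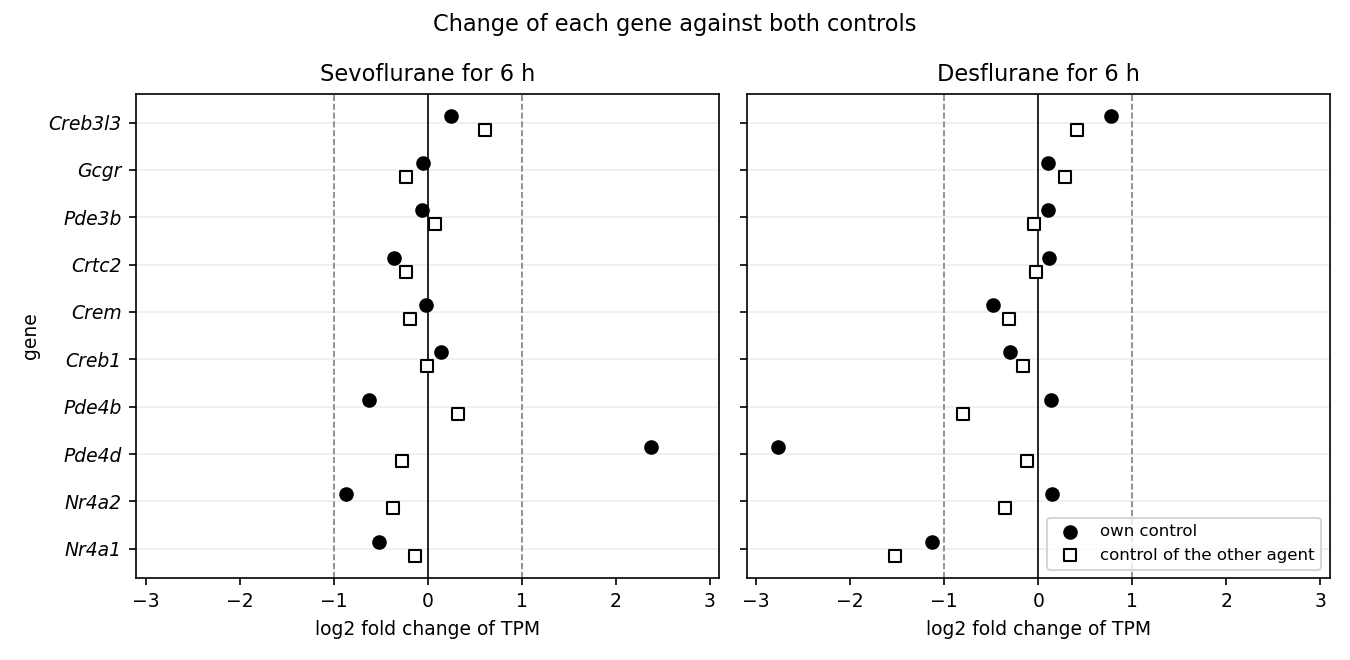
Log2 fold change of TPM for each of the 10 genes in the 6 h sevoflurane library (left) and the 6 h desflurane library (right), against the own control (filled circles) and against the control of the other agent (open squares), with dashed lines at 2-fold. *Pde4d* lies past 2-fold against the own controls, at 2.38 and -2.77, and near 0 against the other controls, at -0.27 and -0.12.

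*Gcgr* (chromosome 10, 109707962 to 109716129, rn6) encodes the glucagon receptor, a receptor that couples to the stimulatory G protein. Its TPM value was 34.5 for the sevoflurane control and 33.3 for the 6 h sevoflurane library, and 39.0 in the desflurane control and 41.8 in the 6 h desflurane library. The log2 changes of *Gcgr* were -0.05 with sevoflurane and 0.10 with desflurane, and the controls differed by 0.17. The TPM value of the receptor was higher in both desflurane libraries than in both sevoflurane libraries, but the FPKM value was 13.5 in both controls, and the assembled transcript over *Gcgr* was higher in the sevoflurane control (53.3 TPM) than in the desflurane control (49.2 TPM). With the controls exchanged, the log2 changes were -0.23 with sevoflurane and 0.28 with desflurane. Of the genes above 2 TPM throughout, those with the pattern most like *Gcgr* over the 4 libraries were *Cd4*, *Pxk*, and *Prpf4b*, whose log2 values, centered on their mean, differed from those of *Gcgr* by at most 0.0143, 0.0153, and 0.0188. Among 9136 genes and only 4 libraries, such closeness is found easily.

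The phosphodiesterases break down cAMP, and 3 of them were among the 10 genes. *Pde3b* (chromosome 1, 183892841 to 184078071, rn6), the phosphodiesterase through which insulin opposes cAMP, reached 35.0 TPM in the sevoflurane control, 33.5 in the 6 h sevoflurane library, 31.7 in the desflurane control, and 34.1 in the 6 h desflurane library. It varied least of the 10 genes, with log2 changes of -0.06 and 0.10. *Pde4b* (chromosome 5, 121759236 to 122136814, rn6), a cAMP-specific phosphodiesterase that is prominent in leukocytes, had TPM values of 8.49, 5.50, 4.42, and 4.86 in the same order. It was highest in the sevoflurane control, and the remaining libraries were close to each other. Its log2 change with sevoflurane was -0.62 against its own control and 0.32 against the desflurane control, and with desflurane it was 0.14 and -0.80. The direction for *Pde4b* thus depended on the control with both agents. The summed TPM value of 8 leukocyte markers was 61.3 in the sevoflurane control, 35.0 in the 6 h sevoflurane library, 50.7 in the desflurane control, and 49.3 in the 6 h desflurane library. Of these markers and the 10 Kupffer cell and macrophage markers, all 18 were lower in the 6 h sevoflurane library than in its control, and *Cd3d* was listed at 0 in the desflurane control. The part of these cells in the *Pde4b* value was not tested, and in whole liver, fewer cells of a type and less RNA per cell cannot be told apart.

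*Pde4d*, another cAMP-specific phosphodiesterase, had a TPM value of 1.20 in the sevoflurane control and 6.26 in the 6 h sevoflurane library, which is a 5.20-fold increase. In the desflurane control it was 7.55, and in the 6 h desflurane library it was 1.1, which is a 6.83-fold decrease. The high value with sevoflurane and the high value of the desflurane control were alike, and so were the low values, so that the controls differed 6.27-fold. The coverage of the same gene did not follow its TPM value. The average coverage of *Pde4d* was 0.720, 0.597, 1.30, and 1.21 in the sevoflurane control, 6 h sevoflurane, desflurane control, and 6 h desflurane libraries. With the coverage scaled to TPM units by the median ratio of the library, the log2 change of *Pde4d* was -0.18 with sevoflurane and 0.05 with desflurane, compared with 2.38 and -2.77 in TPM. The TPM value was 3.01, 17.8, 10.8, and 1.53 times the scaled coverage in the same order of libraries. Such a disparity was uncommon among annotated entries with a coverage higher than 1. Of these, 97.2% to 97.4% in a library had a TPM value within 1% of the scaled coverage. *Pde4d* was below that coverage in both sevoflurane libraries, and entries of lower coverage were not examined.

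The same ratio was examined in the other genes. It was 1.21 to 1.40 for *Gcgr* and 1.52 to 2.0 for *Crem*, whereas it was at most 1.01 in every library for the remaining 7 genes. In RefSeq, *Gcgr* has 3 curated transcripts, *Pde4d* has 5, and *Crem* has 8, compared with 1 or 2 for each of the others. The transcripts behind the gene values were not given in the tables used here, and their part in the ratio was not tested. *Pde4d* spans 1244113 bp on chromosome 2 (40219999 to 41464111, rn6, plus strand), the widest span of the 10 genes. The transcripts assembled by StringTie over this span on the same strand had summed TPM values of 9.64, 15.1, 20.2, and 19.7 in the same order of libraries, which is 1.57-fold higher with sevoflurane and 1.03-fold lower with desflurane. Thus, neither the scaled coverage nor the assembled transcripts of *Pde4d* differed more than 2-fold from the own control with either agent. The gene *Elovl7*, which overlaps *Pde4d* on the opposite strand, had TPM values of at most 0.314.

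**Figure D3:**
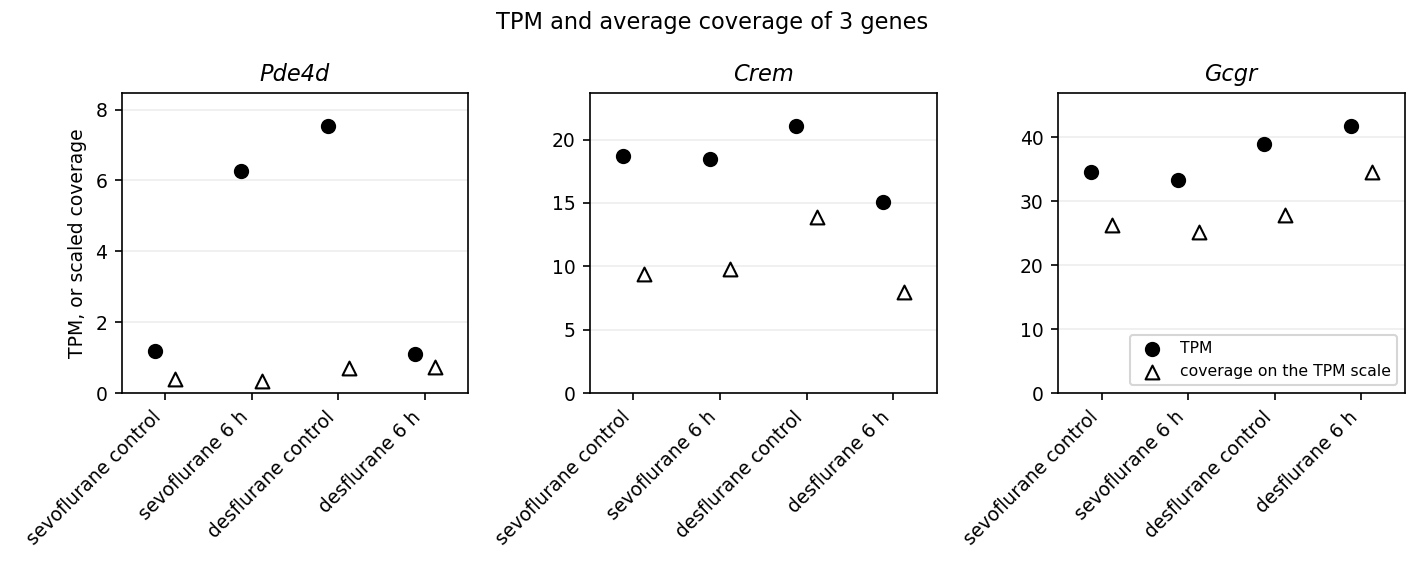
TPM value (filled circles) and average coverage scaled to TPM units (open triangles) of *Pde4d*, *Crem*, and *Gcgr* in each library, with axes that start at 0. The coverage of *Pde4d* stays between 0.353 and 0.721 while its TPM value ranges from 1.1 to 7.55.

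The CREB transcription factors and their coactivator come next in the pathway. *Creb1* (chromosome 9, 71230108 to 71293435, rn6) encodes CREB, the factor that PKA phosphorylates, and had TPM values of 14.5, 15.9, 16.0, and 13.0 in the sevoflurane control, 6 h sevoflurane, desflurane control, and 6 h desflurane libraries. Its log2 changes were 0.14 with sevoflurane and -0.30 with desflurane. *Crtc2* (chromosome 2, 189616061 to 189625646, rn6), the coactivator that enters the nucleus when cAMP is high, had TPM values of 24.3, 18.9, 22.1, and 23.9. It was lowest in the 6 h sevoflurane library, with log2 changes of -0.36 against its own control and -0.23 against the desflurane control, and with desflurane the changes were 0.11 and -0.02. *Crem* (chromosome 17, 57021704 to 57090888, rn6), some of whose start regions are printed above, had TPM values of 18.7, 18.5, 21.1, and 15.1. After 6 hours of desflurane *Crem* was 1.40-fold lower than in its own control, whereas it hardly differed with sevoflurane. With scaled coverage, the log2 change of *Crem* was -0.79 instead of -0.48 with desflurane, and 0.06 instead of -0.02 with sevoflurane. With the assembled transcripts wholly within the gene span added, the changes were 0.74 and 0.30. With all overlapping assembled transcripts in place of the annotated gene, they were -0.56 and 0.47. The direction for *Crem* thus depended on the measure with both agents.

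*Creb3l3* (chromosome 7, 11490852 to 11499286, rn6) encodes CREBH, a membrane-bound factor of hepatocytes that is released by proteolysis in fasting and endoplasmic reticulum stress. It reached 318 TPM in the sevoflurane control, 378 in the 6 h sevoflurane library, 247 in the desflurane control, and 423 in the 6 h desflurane library. It was thus higher in both 6 h libraries than in either control. The increase was 1.19-fold with sevoflurane and 1.71-fold with desflurane, and the log2 changes were 0.61 and 0.41 with the controls exchanged, all within 2-fold. The log2 change of 0.77 with desflurane lay just above the 95th percentile of all genes, which was 0.74. The average coverage of *Creb3l3* was between 463 and 712, the deepest of the 10 genes.

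*Nr4a1* and *Nr4a2* encode nuclear receptors that cAMP induces rapidly through CREB in hepatocytes. *Nr4a1* (chromosome 7, 142912309 to 142920215, rn6) reached 1.39 TPM in the sevoflurane control, 0.969 in the 6 h sevoflurane library, 1.06 in the desflurane control, and 0.485 in the 6 h desflurane library. It was lowest in the 6 h desflurane library, 2.19-fold below its own control and 2.86-fold below the sevoflurane control, but it was below the TPM limit in all libraries. With sevoflurane, *Nr4a1* was 1.43-fold below its own control, and the log2 change was -0.13 against the desflurane control. *Nr4a2* (chromosome 3, 43111936 to 43117406, rn6, minus strand) had TPM values of 2.33, 1.28, 1.65, and 1.83 in the same order. Its log2 change was -0.87 with sevoflurane. With desflurane it was 0.15, and the value of the 6 h desflurane library lay between those of the controls. Of the 10 genes, *Creb3l3* was higher by TPM in both 6 h libraries than in both controls, and *Crem* and *Nr4a1* were lower. Of 12512 genes detected in every library, 31.0% were higher and 13.8% were lower in this way, so 1 of 10 was below the background for higher genes, and 2 of 10 was near it for lower genes. For *Crem*, this rested on 18.5 TPM in the 6 h sevoflurane library against 18.7 in its control. With scaled coverage, these values were 9.79 and 9.38, so *Crem* was not lower in both 6 h libraries by that measure.

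The remaining genes of the pathway were examined by lists of their roles. Of 82 such signaling genes in the files, 48 were above 2 TPM in either sevoflurane library. Of these, 0 were upregulated or downregulated against the own control, compared with 2.23% and 3.30% of all genes. With desflurane, 2 of 49 were upregulated and 0 were downregulated, and the share of upregulated genes was thus near the 2.79% of all genes. These were *Adcy10* and *Rapgef4*. *Adcy10* encodes soluble adenylyl cyclase, which responds to bicarbonate instead of G proteins, and it reached 1.44 TPM in the sevoflurane control, 2.24 in the 6 h sevoflurane library, 0.854 in the desflurane control, and 10.2 in the 6 h desflurane library. Its increase with desflurane was 12.0-fold against its own control and 7.10-fold against the sevoflurane control, and both control values were below the limit of 2 TPM. *Rapgef4* encodes EPAC2, a cAMP sensor besides PKA, and its TPM values were 25.5, 35.9, 22.4, and 51.3 in the same order. *Rapgef4* was higher in both 6 h libraries than in both controls, as were 31% of all genes detected in every library. Against the own control, the increase was 2.29-fold with desflurane and 1.41-fold with sevoflurane. Unlike *Pde4d*, neither *Adcy10* nor *Rapgef4* was set against its coverage or its assembled transcripts. Against the control of the other agent, the genes that passed the limits included *Adcy10* (upward) and *Adcy1* and *Pde7b* (downward) with sevoflurane, and *Adcy1*, *Adcy10*, and *Rapgef4* (upward) with desflurane. No signaling gene passed between the controls.

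Of the remaining signaling genes, none passed the limits against its own control. *Gnas*, which encodes the stimulatory G protein subunit, had TPM values between 8.09 and 8.51, and *Gnb1*, the most abundant G protein gene by mean TPM, between 57.7 and 66.4. *Adcy6*, the most abundant adenylyl cyclase gene, was between 23.6 and 26.8. *Prkar1a*, a regulatory subunit of PKA, was between 85.7 and 104. Among other receptors that couple to the stimulatory G protein, *Vipr1* was the most abundant, at 17.2 to 24.9, and the glucagon-related receptor gene *Glp1r* was listed at 0 in all libraries. Among other phosphodiesterases, *Pde8a* was the most abundant. Its TPM values were 31.4, 47.7, 33.6, and 44.2 in the sevoflurane control, 6 h sevoflurane, desflurane control, and 6 h desflurane libraries. *Pde8a* was thus higher in both 6 h libraries than in both controls, as were 31% of all genes detected in every library, but below 2-fold. *Grk2* for receptor desensitization (18.1 to 23.0), *Akap1* for PKA anchoring (36.5 to 47.6), *Creb3l2* of the CREB family (39.0 to 58.7), and *Sik3*, a kinase that retains CRTC proteins in the cytoplasm (25.4 to 27.1), were the most abundant genes of their lists.

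**Figure D4:**
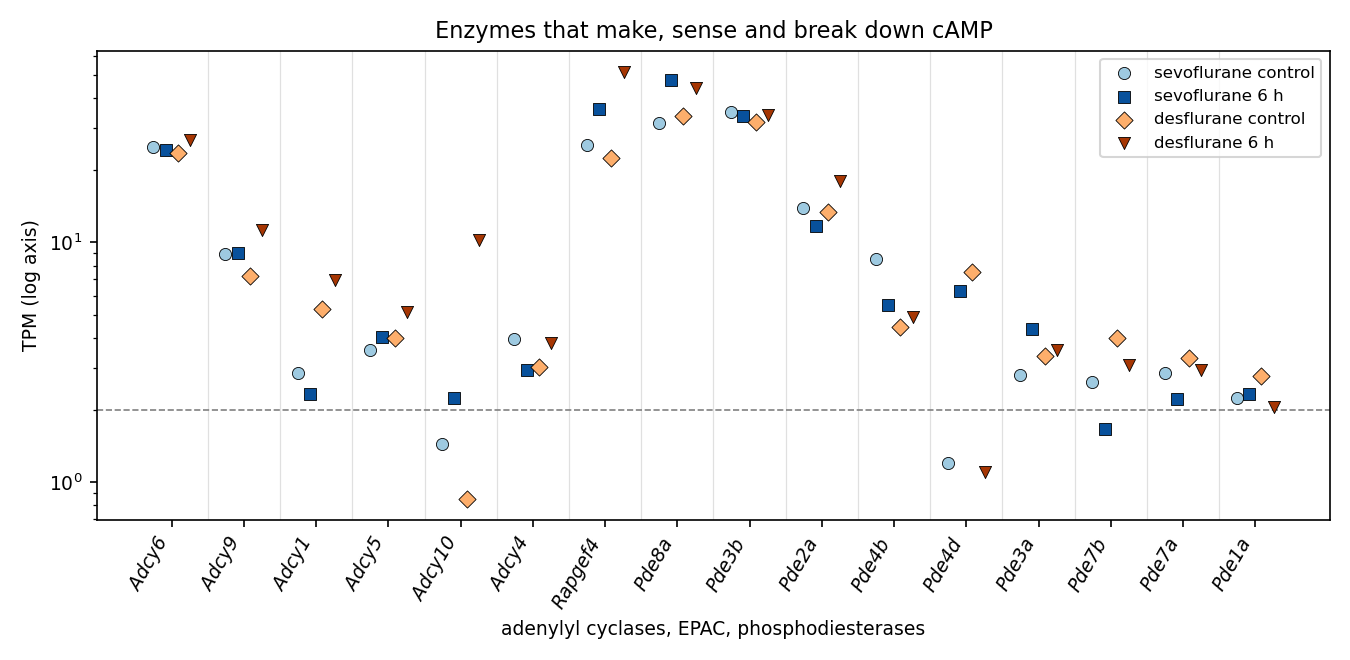
TPM values (log axis) of the adenylyl cyclases, the cAMP sensor *Rapgef4*, and the phosphodiesterases that were above 2 TPM (dashed line) in at least 1 library, with 1 point per library. *Adcy10* stands out in the 6 h desflurane library at 10.2, compared with 0.854 to 2.24 in the other libraries.

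The target genes of the pathway were examined next. Of 19 cAMP-responsive target genes, 16 had TPM values higher than 2 in either desflurane library. Of these, 7 were upregulated and 1 was downregulated with desflurane, compared with 2.79% and 1.48% of all genes. With sevoflurane, 1 of 15 was upregulated and 0 were downregulated, compared with 2.23% and 3.30% of all genes. This list was chosen with earlier results of these data known, so its counts are not a test against those shares. The median log2 change of the targets above 2 TPM in all libraries was 0.93 with desflurane and 0.12 with sevoflurane. Genes upregulated with desflurane were *Igfbp1* (17.2-fold), which encodes an IGF-binding protein, *Egr1* (7.96-fold), an immediate early factor, and *Per1* (5.46-fold), a clock gene. The rest were *G6pc* (4.86-fold) and *Pck1* (2.30-fold), which encode enzymes of glucose production, *Ppargc1a* (4.64-fold), a coactivator of glucose production, and *Irs2* (2.39-fold), an adaptor of the insulin receptor. *Dusp1*, a phosphatase of MAP kinases, was downregulated 5.67-fold with desflurane against its own control, and 2.35-fold against the sevoflurane control. Most of these genes also respond to glucocorticoids, insulin, or stress. *Igfbp1* was the gene upregulated with sevoflurane, by 2.13-fold.

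The control livers differed in these target genes, too. *Pck1* reached 1079 TPM in the sevoflurane control, 980 in the 6 h sevoflurane library, 414 in the desflurane control, and 951 in the 6 h desflurane library. Only the desflurane control stood apart, and against the sevoflurane control *Pck1* was 1.13-fold lower with desflurane. *Igfbp1* had TPM values of 35.1, 74.7, 7.94, and 136 in the same order. For *G6pc*, the values were 206, 223, 114, and 554. Of 18 targets detected in every library, 8 were higher in both 6 h libraries than in both controls, and 3 were lower. *Igfbp1* and *G6pc* were among the 8. Of all genes detected in every library, 31% were higher and 13.8% were lower in this way. Between the controls, 3 of 16 targets were lower in the desflurane control (*Pck1*, *Egr1*, and *Igfbp1*) and 2 were higher (*Dusp1* and *Atf3*), compared with 1.17% of all genes in each direction. Against the sevoflurane control, 5 of 15 targets were upregulated with desflurane (*Ppargc1a*, *G6pc*, *Per1*, *Egr1*, and *Igfbp1*) and *Dusp1* was downregulated. The shares of all genes were 2.84% and 1.58%. Against the desflurane control, 5 of 16 targets were upregulated with sevoflurane (*Pck1*, *Tat*, *Per1*, *Egr1*, and *Igfbp1*). In the same comparison, 4 were downregulated (*Dusp1*, *Nfil3*, *Atf3*, and *Pdk4*), and the shares of all genes were 2.52% and 2.59%. The upregulation of *Per1*, *Egr1*, and *Igfbp1* with desflurane was thus present with both controls, and so was that of *G6pc* and *Ppargc1a*. *Nr4a3*, the gene related to *Nr4a1* and *Nr4a2*, had TPM values below 0.5 in all libraries.

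**Figure D5:**
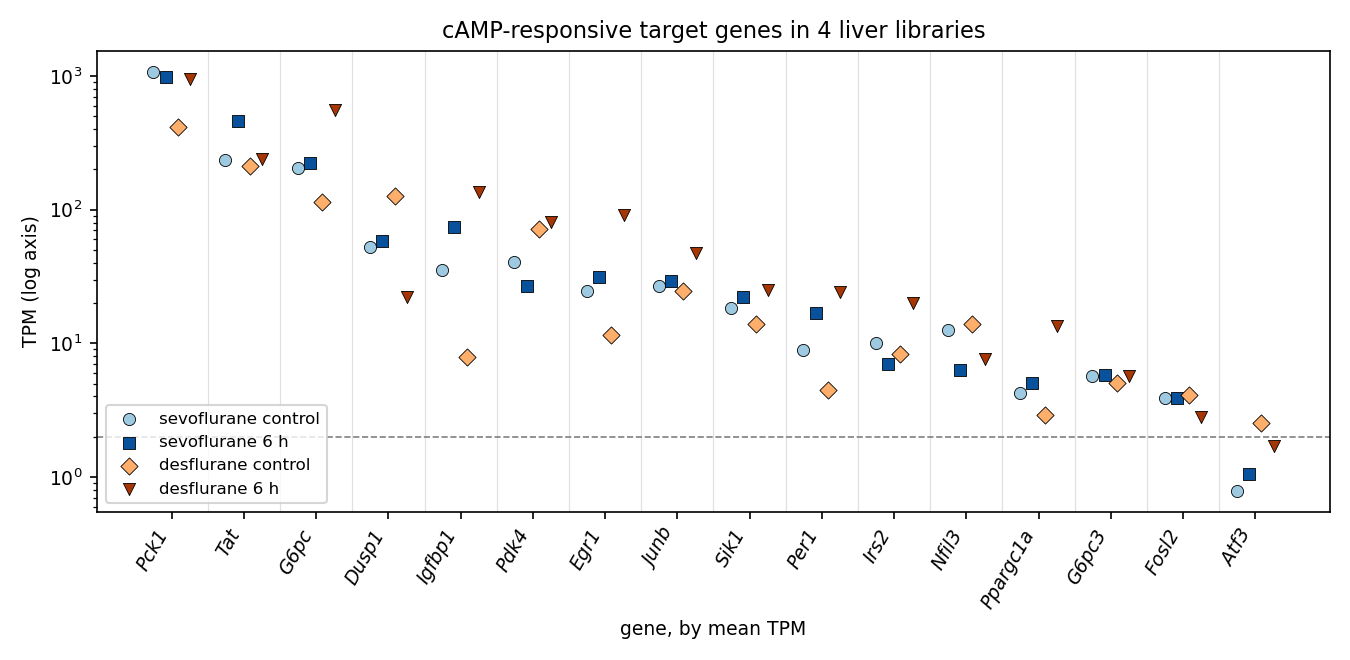
TPM values (log axis) of the 16 cAMP-responsive target genes that were above 2 TPM (dashed line) in at least 1 library, with 1 point per library. *Igfbp1*, *Egr1*, *Per1*, *G6pc*, and *Ppargc1a* are highest in the 6 h desflurane library, and *Dusp1* is lowest there.

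Target genes of CREBH moved in both directions. Of 12 such genes, *Fgf21* and *Cpt1a* were upregulated with sevoflurane, and *Hamp* and *Fads2* were downregulated. With desflurane, *Cpt1a* was upregulated and *Hamp* was downregulated. Among all genes, the shares were 2.23% and 3.30% with sevoflurane and 2.79% and 1.48% with desflurane. Against the control of the other agent, 2 of 12 were upregulated and 2 were downregulated with sevoflurane. There, *Hamp* no longer passed and *Fads1* was downregulated in its place. With desflurane, 2 were upregulated and 1 was downregulated. *Fgf21* was upregulated 2.01-fold with desflurane in this comparison, compared with 0.593-fold against its own control. The shares of all genes were 2.52% and 2.59% with sevoflurane, and 2.84% and 1.58% with desflurane. Between the controls, 1 of 12 was higher in the desflurane control (*Fgf21*, 3.40-fold) and 0 were lower, compared with 1.17% of all genes in each direction. *Cpt1a*, the carnitine palmitoyltransferase of fatty acid oxidation, had TPM values of 124, 329, 99.6, and 435 in the sevoflurane control, 6 h sevoflurane, desflurane control, and 6 h desflurane libraries, higher in both 6 h libraries than in both controls. *Hamp*, which encodes hepcidin, had TPM values of 1487, 458, 893, and 30.4, and was thus lower in both. Of the 12 genes, 6 were higher in both 6 h libraries than in both controls, and 3 were lower. The shares of all genes detected in every library were 31% and 13.8%. *Crp*, the most abundant gene of the list, was between 6474 and 8838. The median log2 change of the list was 0.09 with either agent.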

How the data were processed

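RNA from the left lateral liver lobe was sequenced in 4 libraries. The authors trimmed paired-end reads with sickle, mapped them to rn6 with HISAT2, sorted them with SAMtools, and ran StringTie with the refGene annotation. An average coverage is given in the deposited tables as a signal not normalized for library size. FPKM and TPM values in the deposited tables are those of StringTie. The TPM signal in the deposited files was scaled to a constant sum of the assembled rows, and annotated rows come in addition on the same scale. Assembled rows, between 21770 and 23290 per library, were used only where named, since they repeat reads of annotated rows. Rows of 200 bp or shorter were removed, and TPM values were summed per symbol. The labels gave the groups. No test was made. Without read counts, no counting interval could be given. The labels and the paper name different library kits.

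Coverage was scaled by the median ratio of TPM to coverage among annotated rows with a coverage higher than 1. The members, lists, and rules were chosen with earlier results of these data known. All 10 genes are named. Of the pathway lists, the genes that passed the limits with either agent and the most abundant gene of each list are named, and *Gnas*, *Glp1r*, *Nr4a3*, *Gcg*, *Cd3d*, and genes that passed only with the other control or between the controls were added after their values were seen. The result for 1 pathway gene is not reported here. Start regions were read from RefSeq tables (GRCr8), whose coordinates are not those of rn6. Simulated data were used to check the rule. Alternatives covered the limits, a pseudocount, scaling, FPKM, row choice, the length filter, assembled rows, and the choice of control. The software was Python 3.11.15, numpy 2.4.6, pandas 2.3.3, and matplotlib 3.10.9.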

Additional observations from a re-analysis of the deposited data

Results flagged for a closer look

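In TPM, *Pde4d* had a log2 change of 2.38 with sevoflurane and -2.77 with desflurane, each against its own control, which are opposite directions. The changes were -0.18 and 0.05 with scaled coverage, and -0.27 and -0.12 with the control of the other agent. With assembled rows in place of annotated rows, they were 0.65 and -0.04. None of these changes passed 2-fold. With only the assembled rows wholly within the gene span added to the annotated row, *Pde4d* stayed upregulated with sevoflurane and downregulated with desflurane. The log2 change with desflurane was then -4.65. Assembled rows reaching past the span were left out of that sum, whereas the in-place values used every overlapping row. Assembled rows also repeat reads of annotated rows, so -4.65 is not an independent value. With 1 library in each state, the difference was not tested.

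Transcripts assembled on the opposite strand were above 2 TPM and more than 2-fold above both controls in 1 of the 6 h libraries at *Pde3b* and at *Crem*. Over *Pde3b*, their summed TPM value was 9.72 with desflurane but 2.41 with sevoflurane, compared with 4.46 and 3.61 in the sevoflurane and desflurane controls. Over *Crem*, it was 3.65 with sevoflurane but 0 with desflurane, compared with 1.59 and 0 in the controls. Smaller increases over both controls were present at *Pde4d* with desflurane (5.50, compared with 0 and 3.86) and at *Pde4b* with sevoflurane (1.18, compared with 0 and 0).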

How the results depend on the processing

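No paired analysis was possible because each condition has 1 library. The main counts were 1 of the 10 genes with each agent, 1 between the controls, and 1 between the 6 hour libraries, *Pde4d* in all cases. Scaled coverage, chosen after seeing the data, gave 0 in each of these comparisons, and the log2 change of *Pde4d* was reversed to -0.18 with sevoflurane and 0.05 with desflurane. With the control of the other agent, 0 genes passed with either agent, and *Pde4d* was reversed to -0.27 with sevoflurane. The mean of both controls gave 0 genes with sevoflurane. A fold limit of 1.5 gave 3 genes with sevoflurane (with *Pde4b* and *Nr4a2*) and 2 with desflurane (with *Creb3l3*). A TPM limit of 1, or none, gave 2 genes with desflurane (with *Nr4a1*), and FPKM gave 2 between the controls (with *Pde4b*). The share of all genes was not computed between the 6 h libraries, nor under any alternative except the control of the other agent. Those counts therefore stand without a background. Assembled rows in place of annotated rows, chosen after seeing the data, gave 2 genes with desflurane (*Nr4a1* lower and *Nr4a2* higher) and 1 with sevoflurane, which was *Nr4a1* instead of *Pde4d*. The cause of these differences was not tested, except that changed limits act by construction. For the single genes, 210 of 220 alternative values stayed on the same side of the limits, although uncalled genes could change sign. The 4 values that became weaker and the 3 that reversed were all of *Pde4d*, the only called gene. The 3 that became called were of *Nr4a1* and *Nr4a2*. Each of the 10 genes had 1 annotated row, so the row choice could not change a value.

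The number of cAMP-responsive targets upregulated with sevoflurane was 1. It was 2 without a TPM limit, 3 with a fold limit of 1.5, 3 with assembled rows added, 5 with the control of the other agent, 3 with the mean of both controls, and 0 with assembled rows in place of annotated rows. With desflurane, it was between 5 and 9 under all alternatives that were run. Precision is limited most for *Nr4a1*, *Nr4a2*, and *Pde4d*, whose coverage was at most 4.18.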
